A study of Mus musculus with 13 samples.

Results

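Transcripts of Tet1 knockout male germ cells were compared with those of wild-type germ cells across every expressed gene. The cells are primordial germ cells, the fetal precursors of sperm, taken from mouse embryos at E14.5 and sorted on Oct4-GFP, a fluorescent reporter that is active in germ cells. The comparison asks which transcripts differ where Tet1 is knocked out. The comparison rests on 6 of the 12 libraries used, the 3 labelled KO and the 3 labelled WT, which were chosen by genotype label alone. Of 35976 gene symbols in the count table, 14702 passed the expression filter and were tested. KO carries a Tet1 knockout, HxD and V are Tet1 mutants, and WT is wild type, and all 4 genotypes share the reporter and the sort. HxD is known to encode TET1 without catalytic activity, and V to encode TET1 that makes 5-hydroxymethylcytosine but oxidises it poorly. The 6 libraries of HxD and V entered the same fit, where they add to the estimate of the spread. What the knockout removes from Tet1, whether it acts in germ cells only, and whether replicates are separate embryos or pools is not in the labels. The p-values therefore measure the spread between these libraries, and that spread may be technical. RNA came from 5000 sorted cells per library.

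TET1 oxidises 5-methylcytosine in DNA, which is a step towards its removal, and it can also bind DNA and protein partners without using that activity. Genomic methylation is erased in primordial germ cells as they reach the gonad, and a set of germline genes with CpG-rich promoters, among them genes of the piRNA pathway and of meiosis, is methylated and silent in most somatic tissues and becomes active at that time. In male embryos the germ cells then stop dividing and become prospermatogonia, with pluripotency genes declining and piRNA genes rising.

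Library totals ran from 20842705 to 25828183 counts in KO and from 20213496 to 22858834 in WT. Counts correlated between libraries (Spearman) at 0.949 to 0.960 within KO, 0.928 to 0.963 within WT and 0.914 to 0.962 between KO and WT. The library WT 3 stood apart. Among 9271 genes averaging at least 8 CPM (read counts on the scale of a fixed library total), it had no count for 107, against 13, 0 and 7 in the KO libraries and 1 and 0 in the other WT libraries. HxD 2 had no count for 37 of them, V 3 for 36, HxD 3 for 23 and the other HxD and V libraries for 1 to 3. Results that rest on WT 3 are given with and without it. The common biological coefficient of variation was 0.932, which is large, and calls were made only among well-expressed genes. With genes divided into 4 equal bins by mean CPM, the bin that ended at 2.74 CPM and the next, which ended at 20.4 CPM, had 0 called genes, and their median standard errors of the log2 fold change were 3.14 and 1.03. In the upper bins the median standard errors were 0.35 and 0.20.

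Tet1 itself was reduced but not absent in KO. It had 213, 201 and 225 CPM in the KO libraries, against 596, 589 and 639 CPM in the WT libraries. Every KO library lay below every WT library. The KO level was 2.86-fold lower (log2 fold change -1.51, SE 0.17, edgeR quasi-likelihood adjusted p = 1.41e-05), the smallest p of the table. The reads left in KO cannot be placed along the gene from these counts. Its relatives Tet2 and Tet3 were added after their values were seen. Tet2 averaged 13.8 ± 0.225 CPM in KO and 26.0 ± 6.76 CPM in WT (SD, n = 3 each, log2 fold change -0.92, edgeR adjusted p = 0.644), and Tet3 averaged 3.26 ± 1.55 CPM in KO and 2.54 ± 4.09 CPM in WT (log2 fold change 0.36, edgeR adjusted p = 1).

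With Tet1 included, 32 of the 14702 genes passed an adjusted p of 0.05, which is 0.218%. Of these, 10 were higher in KO (0.068%) and 22 were lower (0.15%). The median log2 fold change over all genes tested was 0.00. KO and WT libraries did not overlap for 16.3% of all genes tested (8.13% higher in KO and 8.15% lower), and they did not overlap for any of the 32 called. At an unadjusted p under 0.05, 8.3% of all genes tested passed, 3.75% higher and 4.54% lower in KO. DESeq2, run as an alternative, called 1.96% of the genes it tested, 0.718% higher and 1.24% lower. The smallest called change was a log2 fold change of -0.76 (Tex14) and the largest -3.20 (Epas1). The 22 genes that fell included germ cell genes of the piRNA pathway, RNA regulation, meiosis and intercellular bridges. The 10 that rose included 2 Rhox homeobox genes and 2 genes of lysosomal and phagocytic function.

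**Figure D1:**
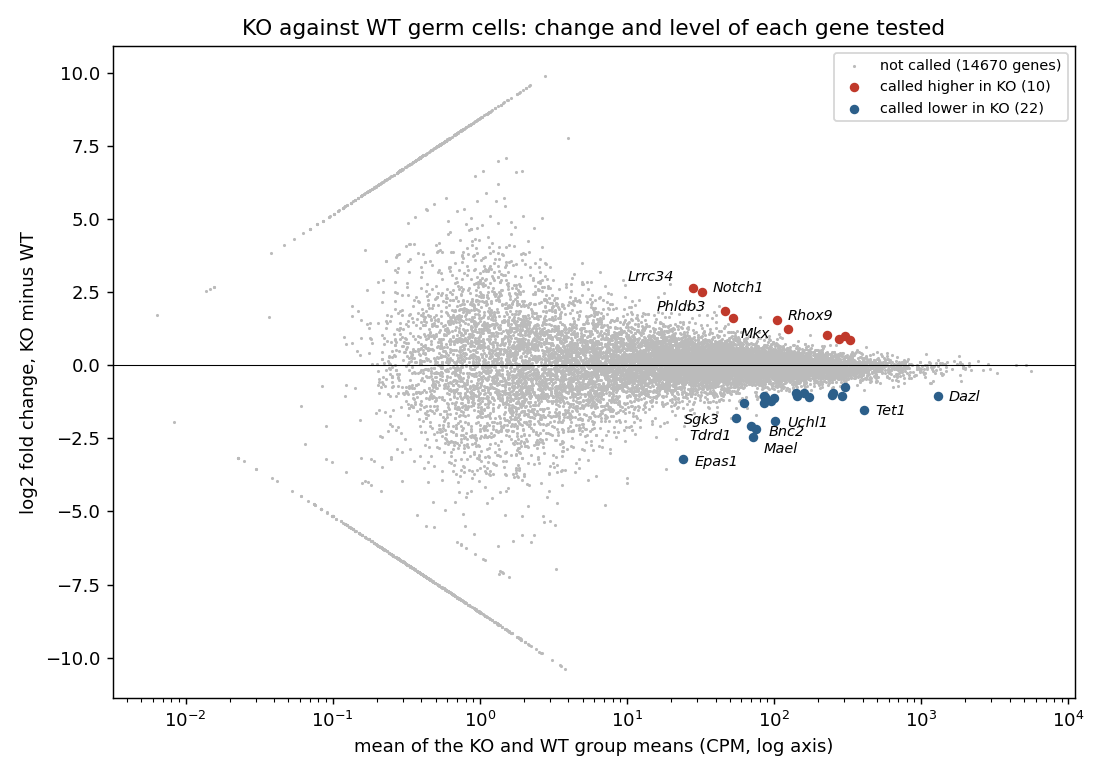
Each point is 1 of 14702 genes tested, with the mean of the KO and WT group means in CPM on a log axis against the log2 fold change of KO minus WT. The 10 genes called higher (red) and 22 called lower (blue) lie to the right, where the spread of the other genes (grey) is narrow, and the diagonal arms are genes with no count in KO or in WT.

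The piRNA pathway makes small RNAs that silence transposons in germ cells, and 2 of its genes were among the strongest changes. Mael, a component of germ granules that is needed for transposon silencing, had 9.54, 23.9 and 32.9 CPM in KO, against 173, 100.5 and 89.6 CPM in WT. The highest KO library held well under the lowest WT library (edgeR log2 fold change -2.45, SE 0.39, adjusted p = 0.0018). Tdrd1, a tudor domain protein that binds PIWI proteins in the same granules, had 14.53, 21.4 and 44.1 CPM in KO, against 194, 75.4 and 68.3 CPM in WT (KO minus WT -2.08 on the log2 scale, SE 0.40, edgeR adjusted p = 0.0127). The WT values of Tdrd1 were spread, with WT 1 well above the others, and without WT 1 the log2 fold change was -1.43 and the adjusted p 0.122. Of 23 tested genes of the piRNA pathway and germ granules, Mael and Tdrd1 passed the test, 21 had a negative log2 fold change and the median was -0.70. Members that did not pass, chosen after their values were seen, were Ddx4, an RNA helicase of germ granules (532 ± 63.1 CPM in KO and 862 ± 108 CPM in WT, SD, n = 3 each, log2 fold change -0.70, edgeR adjusted p = 0.0823), Tdrd12 (-0.90, adjusted p = 0.15) and the PIWI gene Piwil2 (-0.55, adjusted p = 0.364). Dnd1, an RNA-binding protein of early germ cells, had the opposite sign (log2 fold change 0.58, adjusted p = 0.257).

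Genes that regulate RNA and build the bridges between sister germ cells also fell. Dazl, an RNA-binding protein that licenses germ cells for sexual development, had 757, 1071 and 720.3 CPM in KO, against 1753, 1605 and 1906 CPM in WT (edgeR log2 fold change -1.05, SE 0.19, adjusted p = 0.00943). Rbm44, an RNA-binding protein of the intercellular bridge, had 61.9, 64.0 and 44.9 CPM in KO, against 163, 126 and 108 CPM in WT (edgeR log2 fold change -1.22, SE 0.23, adjusted p = 0.0111). Each KO library was below each WT library for both genes. Tex14, which is required in mice to form a stable bridge, averaged 225 ± 18.6 CPM in KO and 381 ± 31.2 CPM in WT (SD, n = 3 each, log2 fold change -0.76, edgeR adjusted p = 0.0254). Its standard error of 0.16 was small, and this is the smallest change that was called. The call of Tex14 ended when any of KO 1, KO 2, KO 3, WT 1 or WT 3 was left out, that of Rbm44 without KO 3 or WT 1, while Dazl was called whichever single library was left out. Of 20 tested germ cell RNA-binding regulators, Dazl and Rbm44 passed the test, 17 were negative and the median was -0.34. Of the uncalled members, 2 were picked after their values were seen. Lin28b, which blocks maturation of let-7 miRNAs, averaged 21.6 ± 5.81 CPM in KO and 52.1 ± 8.26 CPM in WT (log2 fold change -1.27, edgeR adjusted p = 0.381), and Nanos2, a regulator of male fate, averaged 0.757 CPM in KO and 8.62 CPM in WT with a standard error of 2.09.

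Among genes of the meiotic chromosome axis, Smc1b, a subunit of the cohesin complex used in meiosis, passed the test. It averaged 163 ± 16.2 CPM in KO and 329 ± 38.1 CPM in WT (SD, n = 3 each, edgeR log2 fold change -1.01, SE 0.22, adjusted p = 0.0438), a call that ended without KO 3, WT 1 or WT 3. Over 16 alternative settings of the analysis, Smc1b lost its call in 8, among them DESeq2 (DESeq2 adjusted p = 0.072). Of 18 tested axis and synapsis genes, 15 were negative and the median was -1.02. The next genes of the list were picked after their values were seen. The synapsis genes had log2 fold changes of -1.69 for Sycp1 (edgeR adjusted p = 0.0837), -1.47 for Sycp2 (edgeR adjusted p = 0.302) and -1.19 for Sycp3 (edgeR adjusted p = 0.644), and these 3 did not pass. The cohesin gene Stag3, at 353 ± 38.9 CPM in KO and 381 ± 45.0 CPM in WT, had a log2 fold change of -0.11. None of 20 tested genes of meiotic recombination was called by edgeR or DESeq2 (median -0.38). At an unadjusted p under 0.05, 2 of the 20 were lower, where 4.54% of all genes tested were. Among the 2 was Brca2 (136 ± 23.7 CPM in KO and 214 ± 5.44 CPM in WT, log2 fold change -0.65, edgeR adjusted p = 0.351). Stra8, which switches on meiosis and was also picked after its value was seen, had counts near the floor, with means of 1.36 CPM in KO and 0.902 CPM in WT.

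Many of these genes belong to a list of 46 germline genes whose promoters are known to be controlled by DNA methylation, of which 43 were tested. In KO 6 of them were called lower (Mael, Dazl, Rbm44, Tdrd1, Tex14 and Smc1b) and 1 higher (Rhox5). That is 16.3% of the tested members, where 0.218% of all genes tested were called. Of the 43, 36 had a negative log2 fold change, against 49.5% of all genes tested, and their median was -0.76. Among the 31 members averaging at least 20 CPM, 26 were negative with a median of -0.70, and 22.6% were called, against 0.433% of the 7386 genes at that level. Members just short of the threshold, chosen after their values were seen, were Slc25a31, a testis form of the mitochondrial ADP/ATP carrier (35.5 ± 28.8 CPM in KO and 115 ± 37.9 CPM in WT, SD, n = 3 each, log2 fold change -1.70, edgeR adjusted p = 0.0712), and the ubiquitin protease gene Usp26 (-1.46, adjusted p = 0.0881). Syce2, Tex19.1 and Mcf2 were picked in the same way. Syce2 averaged 126 ± 7.64 CPM in KO and 125 ± 14.1 CPM in WT, and Tex19.1 averaged 318 ± 58.0 CPM in KO and 331 ± 63.9 CPM in WT. Mcf2 had counts in KO (4.41 ± 0.794 CPM) and none in the WT libraries. The summed level of the list in KO was 4377 to 5101 CPM, against 6547 to 8105 CPM in WT (exact permutation p = 0.1, the smallest that 3 libraries against 3 can give). The list was written with results of these data known. Neither this p-value nor the shares and medians above are therefore independent support for a difference. In sorted bulk samples, fewer cells of a stage and less RNA per cell cannot be told apart.

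**Figure D2:**
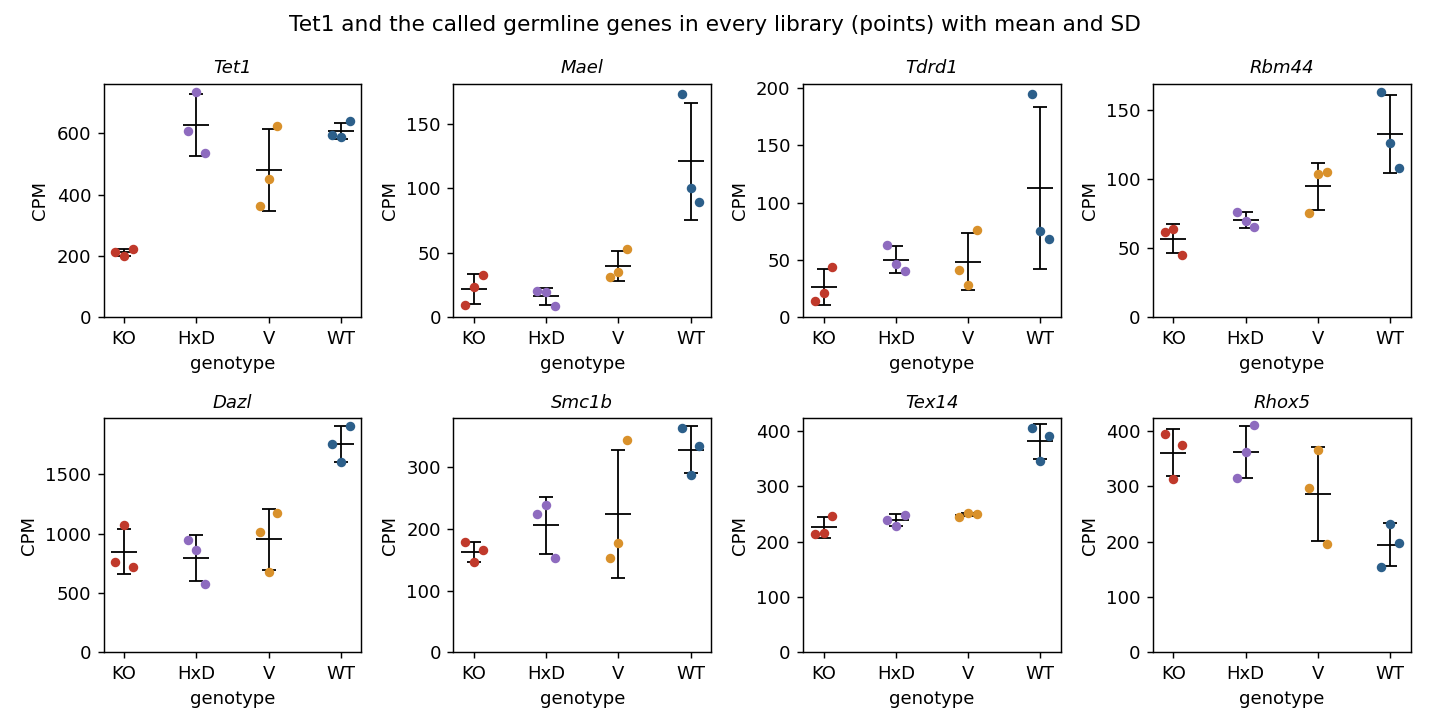
CPM of Tet1 and of the 7 called genes of the germline list in every library (points), with the mean and SD of each genotype (n = 3 each). KO libraries lie below WT libraries for Tet1 and the 6 lower germline genes and above them for Rhox5, and for Mael, Dazl and Tex14, which were chosen by KO against WT, the HxD and V libraries also lie below WT.

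Promoters of the 5 called lower germline genes with a RefSeq entry are shown because the list names genes with promoters known to be controlled by methylation. Each run is the 250 bases before the RefSeq start, written in the direction of transcription, with every CpG, the site that is methylated, in capitals. The starts are RefSeq starts of build GRCm38.p6 and may differ from the start used in germ cells.

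Mael promoter, chr1:166238745-166238994, minus strand, GRCm38.p6: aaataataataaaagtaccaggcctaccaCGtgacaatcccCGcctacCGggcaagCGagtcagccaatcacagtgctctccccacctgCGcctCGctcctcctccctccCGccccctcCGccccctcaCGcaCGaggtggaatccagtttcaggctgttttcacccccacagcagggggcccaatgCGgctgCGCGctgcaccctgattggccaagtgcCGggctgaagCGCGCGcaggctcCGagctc
Tdrd1 promoter, chr19:56825959-56826208, plus strand, GRCm38.p6: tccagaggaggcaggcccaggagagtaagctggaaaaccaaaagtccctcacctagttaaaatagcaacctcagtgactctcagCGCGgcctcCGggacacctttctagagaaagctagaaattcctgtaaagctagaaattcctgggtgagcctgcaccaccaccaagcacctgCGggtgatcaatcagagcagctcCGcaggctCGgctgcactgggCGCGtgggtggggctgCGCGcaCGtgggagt
Dazl promoter, chr17:50293621-50293870, minus strand, GRCm38.p6: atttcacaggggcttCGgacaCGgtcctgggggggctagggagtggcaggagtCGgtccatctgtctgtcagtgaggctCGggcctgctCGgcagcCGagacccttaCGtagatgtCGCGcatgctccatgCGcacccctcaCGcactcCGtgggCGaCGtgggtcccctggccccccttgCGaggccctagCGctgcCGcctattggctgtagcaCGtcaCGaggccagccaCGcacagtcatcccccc
Tex14 promoter, chr11:87404815-87405064, plus strand, GRCm38.p6: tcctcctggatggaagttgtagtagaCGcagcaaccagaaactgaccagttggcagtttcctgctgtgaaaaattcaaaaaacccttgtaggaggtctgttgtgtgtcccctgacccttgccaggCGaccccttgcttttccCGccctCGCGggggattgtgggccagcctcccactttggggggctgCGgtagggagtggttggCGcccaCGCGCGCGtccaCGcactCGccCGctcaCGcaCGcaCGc
Smc1b promoter, chr15:85131958-85132207, minus strand, GRCm38.p6: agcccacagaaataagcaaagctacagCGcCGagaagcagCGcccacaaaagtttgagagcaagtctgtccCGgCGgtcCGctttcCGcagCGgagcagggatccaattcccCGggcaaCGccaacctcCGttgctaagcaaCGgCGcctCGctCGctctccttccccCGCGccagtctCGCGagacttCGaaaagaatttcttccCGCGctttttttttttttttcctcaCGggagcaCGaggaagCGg

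These promoters hold 18, 11, 20, 17 and 25 CpG sites, in the order shown, and the median over the 39 tested germline genes with an entry was 14. It was 6 over all 32851 entries of the table and 16 over the 10961 tested genes with an entry. The hexamer CACGTG, known as an E-box and the core site of MGA and MAX in a repressor of germline genes, lies in the Mael and Tdrd1 promoters. The hexamer TCCCGC, the core of sites bound by E2F6 of the same complex, lies on either strand in those of Mael, Tex14 and Smc1b. Each hexamer holds 1 CpG, and in the Mael promoter, which has both, they lie apart. Over the germline list CACGTG was present in 17 of 39 promoters (43.6%), against 6.02% of all entries and 8.37% of those of tested genes. TCCCGC was present in 14 (35.9%), against 16.9% of all entries and 30.2% of those of tested genes. The 17 germline genes with CACGTG had a median log2 fold change of -1.19, with 16 negative. The 22 without it had a median of -0.59, with 16 negative. Called lower were 2 of the 17 and 3 of the 22. The 14 genes with TCCCGC had a median of -0.75 and the 25 without it -0.76, with 3 and 2 called lower. None of these splits was tested. A match of letters is no evidence that a factor binds there.

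The complex named with these sites, PRC1.6, contains MGA, MAX, L3MBTL2, E2F6 and PCGF6. Of its 15 tested genes 0 were called by edgeR, while 2 higher and 2 lower ones had an unadjusted p below 0.05 and 2 lower ones were DESeq2 calls. The median log2 fold change was -0.21. Mga averaged 184 ± 46.3 CPM in KO and 315 ± 13.8 CPM in WT (SD, n = 3 each, log2 fold change -0.78, edgeR adjusted p = 0.083), and Hdac2, a histone deacetylase, averaged 387 ± 42.4 CPM in KO and 414 ± 42.1 CPM in WT (-0.10). Polycomb repressive complex 2 had 0 of 11 members called by edgeR or DESeq2 and 0 at an unadjusted p under 0.05, with a median of -0.13. Its histone-binding subunits Rbbp7 and Rbbp4 had log2 fold changes of -0.22 and -0.09. Of 25 genes of DNA methylation and demethylation, edgeR called Tet1 alone and DESeq2 called 3, all lower. At an unadjusted p below 0.05 there were 6 lower and 0 higher, Tet1 included, and 8 were lower and 1 higher without overlap between KO and WT. Over all genes tested, 4.54% were lower and 3.75% higher at that p, and 8.15% were lower and 8.13% higher without overlap. The 24 genes other than Tet1 had a median of -0.04. Uhrf1, which guides maintenance methylation and was named after its value was seen, averaged 49.7 ± 18.1 CPM in KO and 115 ± 10.9 CPM in WT (log2 fold change -1.21, edgeR adjusted p = 0.0712). The maintenance methyltransferase gene Dnmt1 had -0.16 and the de novo gene Dnmt3a -0.65 (adjusted p = 0.24), both also named after their values were seen.

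Genes of male germ cell fate fell in part. Uchl1, a deubiquitinating enzyme that marks spermatogonia, had 52.2, 47.0 and 27.5 CPM in KO, against 174, 122 and 182 CPM in WT (edgeR log2 fold change -1.92, SE 0.28, adjusted p = 0.000817). Bnc2, which encodes a zinc finger protein, had 19.9, 38.5 and 23.2 CPM in KO, against 195, 66.1 and 107 CPM in WT (edgeR log2 fold change -2.17, SE 0.39, adjusted p = 0.00931). The groups did not overlap for either gene, with WT 1 the highest library for Bnc2. With Tdrd1, these were the 3 called of 26 tested members, of which 21 were negative with a median of -0.55. The Nodal pathway genes on the list, picked after their values were seen, Nodal (log2 fold change 0.44, adjusted p = 0.728) and Lefty1 (-0.06), did not pass. Of 26 tested pluripotency and early germ cell factors, edgeR called 0, DESeq2 1 (higher), and 3 (all higher) had an unadjusted p below 0.05. Over all genes tested, 3.75% were higher at that p. Of these 26, 18 were positive, the reverse of the male fate genes, with a median of 0.19. Tfap2c, a transcription factor of germ cell specification, averaged 128 ± 7.81 CPM in KO and 76.5 ± 25.2 CPM in WT (log2 fold change 0.75, edgeR adjusted p = 0.212). Dppa3, which protects methylation in the early embryo, averaged 702 ± 11.9 CPM in KO and 760.2 ± 172 CPM in WT (-0.12).

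Markers of germ cell identity were present in both genotypes and lower in sum in KO, with Mael and Dazl called. The 12 markers summed to 3881 to 4214 CPM in KO, against 5088 to 5259 CPM in WT (exact permutation p = 0.1, the smallest possible). They include the called genes and were listed with results of these data known, so this p-value is no independent support. Of these 12, 7 were negative and 5 positive, with a median log2 fold change of -0.06. Dazl, Ddx4, Mael and Sycp3 were lower in each KO library than in each WT library, and Dnd1 and Tfap2c were higher in each. Dazl averaged 849 CPM in KO and 1754 CPM in WT and Ddx4 532 CPM in KO and 862 CPM in WT, which makes up most of the difference in the sum. Pou5f1, the gene behind the sorting reporter, had 398, 325 and 348 CPM in KO, against 307, 299 and 341 CPM in WT, so the groups overlapped. Kit, a receptor of early germ cells, had 769, 446 and 597 CPM in KO, against 382, 491 and 512 CPM in WT, and overlapped as well. What part the markers' shift has in the changes of other germline genes was not tested.

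Each list of markers of other gonadal cells had a lower sum than the germ cell markers, though single markers such as Pecam1 were above some germ cell markers. The 14 Sertoli markers summed to 89.0 to 126 CPM in KO, against 46.8 to 188 CPM in WT. Of the KO and WT libraries WT 3 was the highest (Amh at 59.6 CPM), and Sox9, the defining gene, was at 0 in all but KO 2. V 2, which entered the fit, had 534 CPM of Sertoli markers, against 39.8 to 76.6 CPM in the other HxD and V libraries. Its macrophage markers summed to 43.1 CPM, against 0 to 9.21 CPM in those libraries. Of the 13 Sertoli markers tested, edgeR called 0 and DESeq2 2 (higher). At an unadjusted p below 0.05, 3.75% of all genes tested were higher, and 3 of these markers passed, all higher. These were Ctsl, a lysosomal protease that is also on the lysosome list (51.5 ± 13.96 CPM in KO and 24.1 ± 8.08 CPM in WT, SD, n = 3 each, without overlap, edgeR adjusted p = 0.485), and Cldn11 and Mro, which averaged 2.26 and 1.80 CPM in KO and had no count in the WT libraries. The 8 Leydig markers summed to 6.14 to 55.1 CPM in KO, against 19.5 to 28.7 CPM in WT, with Lhcgr at 0. The 12 stromal markers summed to 5.42 to 32.8 CPM in KO, against 9.42 to 15.7 CPM in WT, with Lum at 0. The 12 macrophage markers reached 4.98 CPM in KO and 6.35 CPM in WT, with 6 of them, Csf1r and Adgre1 included, at 0 throughout. The 10 erythroid markers reached 22.9 CPM in KO and 13.5 CPM in WT, and the 8 granulosa markers 16.9 CPM in KO and 26.4 CPM in WT with Foxl2 at 0. The 11 endothelial markers summed to 208 to 312 CPM in KO, against 201 to 253 CPM in WT, most of it from Pecam1, which germ cells of this age also express, with Tie1, Emcn and Esam at 0. The smallest exact permutation p over these lists was 0.4, for the stromal markers. Immediate-early genes, which rise on handling, summed to 583 to 781 CPM in KO, against 582 to 636 CPM in WT (exact permutation p = 0.3), with 0 of 19 called by edgeR or DESeq2, 2 higher at an unadjusted p under 0.05, Dusp1 at a log2 fold change of 0.88 and Jund at -0.05. The mitochondrially encoded genes summed to 12378 to 16830 CPM in KO, against 12044 to 17725 CPM in WT (exact permutation p = 0.7). Their part in the gene changes was not tested.

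Among signalling and metabolic lists, the called genes were few. Epas1, the oxygen-regulated transcription factor HIF-2 alpha, had 1.41, 6.16 and 6.72 CPM in KO, against 37.1, 51.6 and 42.4 CPM in WT, the strongest change of all called genes (edgeR log2 fold change -3.20, SE 0.51, adjusted p = 0.0018). Pdk1, a HIF target, encodes a kinase that limits the use of pyruvate in the mitochondrion. It averaged 94.9 ± 18.8 CPM in KO and 185 ± 16.1 CPM in WT (SD, n = 3 each, log2 fold change -0.96, edgeR adjusted p = 0.0461). These were the called members of 25 tested hypoxia genes, whose median was 0.08 with 16 positive, opposite in sign to Epas1. Pdk1 was also the called member of 28 tested glycolysis genes (median 0.21). Sgk3, a kinase activated downstream of PI3K on endosomes, had 24.0, 22.04 and 27.3 CPM in KO, against 83.0, 64.4 and 111 CPM in WT (edgeR log2 fold change -1.81, SE 0.29, adjusted p = 0.0018). Its KO libraries lay close together and its WT libraries were well above them. It was the called member of 22 tested PI3K, AKT and SGK genes, of which 17 were negative with a median of -0.25. Ptch1, the Hedgehog receptor and a target of the pathway, averaged 110 ± 23.3 CPM in KO and 211 ± 26.5 CPM in WT (log2 fold change -0.94, edgeR adjusted p = 0.0403), and the 15 tested Hedgehog genes had a median of 0.05. Smurf1, a ubiquitin ligase that limits BMP signalling, averaged 36.6 ± 5.42 CPM in KO and 88.7 ± 24.1 CPM in WT (log2 fold change -1.28, edgeR adjusted p = 0.0495) and was the called gene nearest the threshold. The call of Pdk1 ended without KO 1, KO 3 or WT 1, that of Ptch1 without those or WT 3, and that of Smurf1 without KO 1, KO 3, WT 1 or WT 2.

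The other genes that fell have varied functions. Rab3gap2, a subunit of a regulator of RAB GTPases, had 113, 102 and 118 CPM in KO, against 288, 169 and 244 CPM in WT (log2 fold change -1.07, edgeR adjusted p = 0.00943). Lrrfip1, a nucleic acid-binding protein, had 140.1, 205 and 169 CPM in KO, against 360.0, 325 and 319 CPM in WT (log2 fold change -0.96, edgeR adjusted p = 0.0101). The groups were apart for both genes, with the WT libraries of Rab3gap2 the more spread. Pmaip1, which encodes the cell death protein NOXA, averaged 93.5 ± 17.5 CPM in KO and 194 ± 42.5 CPM in WT (SD, n = 3 each, log2 fold change -1.05, edgeR adjusted p = 0.0166), and it was the called member of 25 tested BCL2 family and p53 target genes, whose median was 0.20. Msn, which encodes moesin, a linker of the membrane to actin, had a log2 fold change of -1.29 (edgeR adjusted p = 0.0256). Samhd1, which breaks down deoxynucleotides, had -1.09, Arid4a, which binds the retinoblastoma protein, -1.13, Akap11, an anchor of protein kinase A, -1.04, and Kndc1, a Ras exchange factor known from neurons, -1.05, with edgeR adjusted p from 0.0403 to 0.0461. On leaving out single libraries, Rab3gap2 lost its call without WT 1, Lrrfip1 without KO 1, Pmaip1 without KO 1, KO 3 or WT 1, Msn and Arid4a without KO 3 or WT 1, and Akap11 without KO 3 or WT 3. Samhd1 lost its call without any of 4 libraries (KO 1, KO 2, WT 1, WT 3) and Kndc1 without any of 5 (those and KO 3).

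Of the genes that rose, Lrrc34, a leucine-rich repeat gene, changed the most. It had 73.1, 30.7 and 40.6 CPM in KO, against 7.37, 11.3 and 4.34 CPM in WT (edgeR log2 fold change 2.65, SE 0.46, adjusted p = 0.00631). Notch1, a receptor of cell-to-cell signalling, had 71.2, 42.0 and 52.2 CPM in KO, against 9.12, 19.01 and 1.10 CPM in WT (edgeR log2 fold change 2.50, SE 0.54, adjusted p = 0.0403). Its level in WT 3 was the lowest, and without WT 3 the log2 fold change was 1.97 (adjusted p = 0.0334). WT 2 was the highest, and without it the log2 fold change was 3.43 (adjusted p = 0.000126). Notch1 was the called member of 22 tested Notch pathway genes, whose median was -0.12. Mkx, a homeobox gene known from tendon, had 92.7, 69.6 and 76.8 CPM in KO, against 19.15, 43.8 and 15.7 CPM in WT (3.04-fold higher, edgeR adjusted p = 0.0254). Phldb3 had 68.6, 60.8 and 89.3 CPM in KO, against 16.8, 38.6 and 5.17 CPM in WT (log2 fold change 1.85, edgeR adjusted p = 0.0461). For Mkx and Phldb3, WT 2 was the highest WT library and still lay below the lowest KO library. Without WT 2 the log2 fold changes were 2.19 for Mkx and 2.73 for Phldb3. The calls of Lrrc34 and Notch1 ended without KO 1, that of Mkx without WT 1 or WT 3, and that of Phldb3 without KO 3, WT 1 or WT 3. Over 16 alternative settings of the analysis, Lrrc34 lost its call in 2, Notch1 and Mkx in 6 each and Phldb3 in 9. For Notch1 the edgeR adjusted p was 0.212 with robust empirical Bayes and 0.179 with only KO and WT fitted.

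Rhox genes are X-linked homeobox genes expressed in reproductive tissues, and several are known targets of DNA methylation. Rhox9 had 217, 94.4 and 155 CPM in KO, against 27.2, 75.8 and 55.1 CPM in WT (edgeR log2 fold change 1.56, SE 0.31, adjusted p = 0.0206). Rhox5, the founding member, had 395, 314 and 375 CPM in KO, against 154, 232 and 198 CPM in WT (edgeR log2 fold change 0.89, SE 0.19, adjusted p = 0.0434). The groups did not overlap for either, though the lowest KO library of Rhox9 was near the highest WT library. Rhox6, chosen after its value was seen, averaged 61.2 ± 13.3 CPM in KO and 17.3 ± 14.8 CPM in WT (log2 fold change 1.82, edgeR adjusted p = 0.13). Of 14 Rhox symbols in the table, 8 were tested, with a median of 0.53 and 6 positive, and 5 had no count in KO or WT. Reads shared between near-identical members make these counts uncertain. Rhox5 was the called member of the germline list that went up, opposite in sign to the other called ones. The call of Rhox9 ended without KO 1, and that of Rhox5 without KO 1, KO 3, WT 1 or WT 3. Over the 16 alternative settings, Rhox9 lost its call in 6 (edgeR adjusted p = 0.18 with robust empirical Bayes) and Rhox5 in 8.

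Grn, which encodes progranulin, a secreted protein that works in lysosomes, had 415, 406 and 459 CPM in KO, against 210.2, 261 and 226 CPM in WT (edgeR log2 fold change 0.88, SE 0.17, adjusted p = 0.0111). Its WT libraries lay close together, well below those of KO. Mfge8, a secreted bridge between phagocytes and dying cells, had 269, 298 and 356 CPM in KO, against 146, 212 and 88.7 CPM in WT (edgeR log2 fold change 1.05, SE 0.23, adjusted p = 0.0403). The groups were apart for both, and these were the called members of 24 tested lysosome and phagocytosis genes, whose median was 0.02. Tmem184b, a transmembrane protein gene, had 188, 139.8 and 197 CPM in KO, against 75.9, 101 and 48.1 CPM in WT (log2 fold change 1.22, edgeR adjusted p = 0.0101). Col18a1, which encodes a collagen of basement membranes, had 454, 375 and 387 CPM in KO, against 153, 275 and 178 CPM in WT (2.01-fold higher, edgeR adjusted p = 0.0438). WT 3 was the lowest WT library for 6 of the 10 higher genes, and the 10 log2 fold changes without it ran from 0.78 for Mfge8 to 2.36 for Lrrc34. Without WT 3, Lrrc34, Rhox9 and Notch1 were still called, and the other 7 had edgeR adjusted p from 0.0572 (Grn) to 0.173 (Mfge8). Those of Grn and Mfge8 also ended without KO 3 or WT 1, and that of Col18a1 without KO 1 or WT 1.

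**Figure D3:**
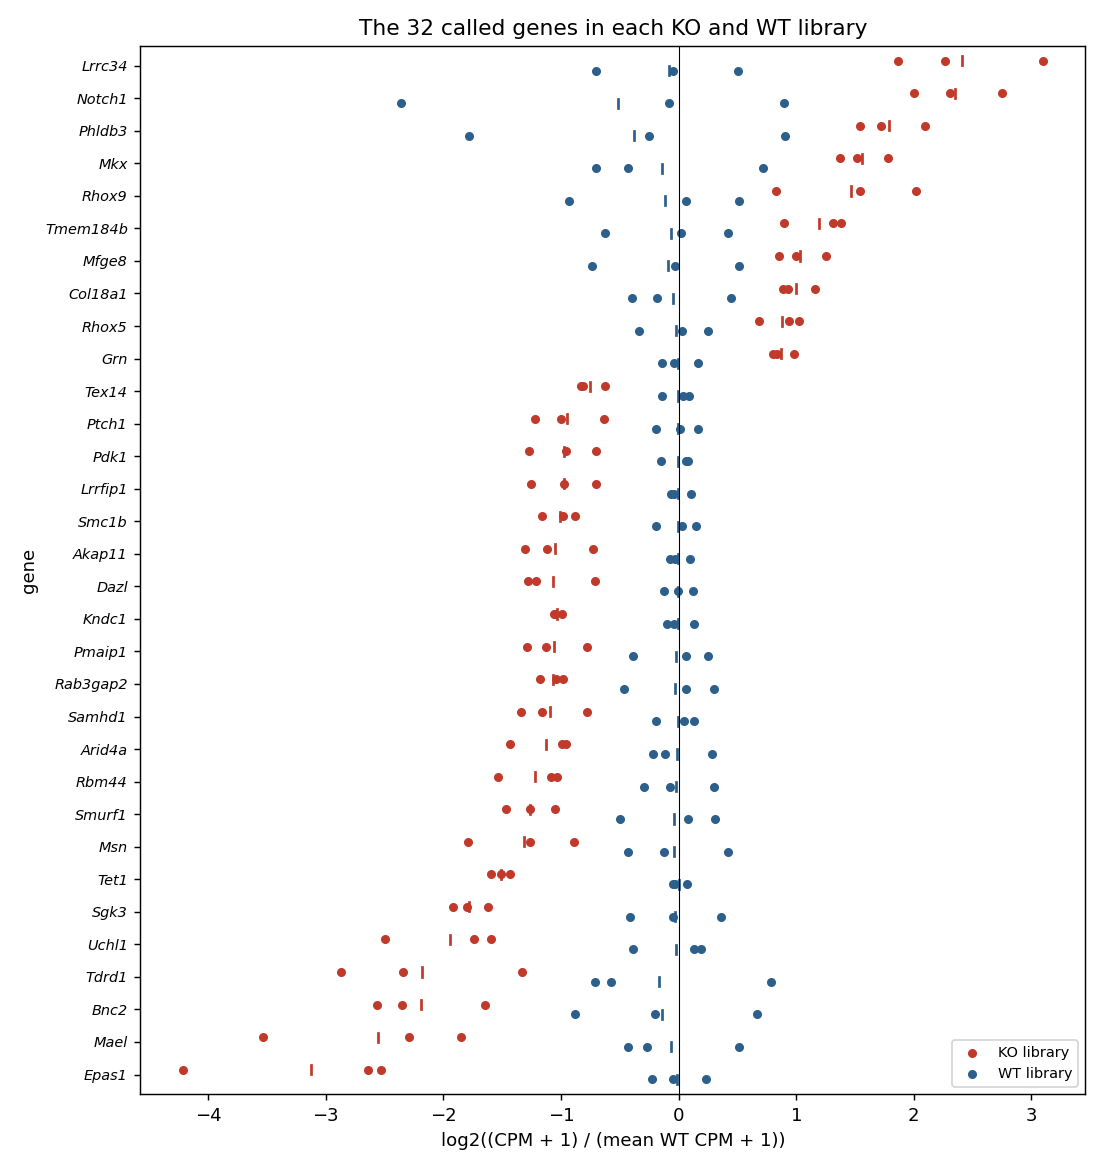
Each of the 32 called genes in each KO (red) and WT (blue) library, as log2 of CPM + 1 over the mean WT CPM + 1, with vertical bars at the group means (n = 3 each). KO and WT points do not overlap in any row, and the WT points are widest for Notch1, Phldb3, Bnc2 and Tdrd1.

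The 5 genes next to the threshold had edgeR adjusted p from 0.0508 to 0.0712. Rimbp2 and Hspa4l had log2 fold changes of -0.94 and -1.17. The transporter gene Abcg2, the growth factor gene Pdgfa and Stox2 had 1.06, 1.14 and 1.33. KO and WT libraries did not overlap for any of these 5, which were picked by their small p. Over all genes tested, 16.3% did not overlap.

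Imprinted genes, which carry parental methylation that is erased in these cells, had no member called by edgeR in either list. At an unadjusted p below 0.05, 3.75% of all genes tested were higher and 4.54% lower. Of 25 paternally expressed genes tested, edgeR and DESeq2 called 0, and 1 higher and 2 lower ones had an unadjusted p below 0.05. The median was -0.23. Peg3, a zinc finger gene of this list with both its smallest p and its highest level, averaged 290.0 ± 93.9 CPM in KO and 522 ± 73.9 CPM in WT (SD, n = 3 each, log2 fold change -0.85, edgeR adjusted p = 0.13). Of 22 maternally expressed genes tested, edgeR called 0, DESeq2 1 (higher), and 1 (higher) had an unadjusted p below 0.05. The median was -0.09. Gnas, a G protein subunit gene, averaged 127 ± 18.4 CPM in KO and 76.9 ± 18.3 CPM in WT (log2 fold change 0.72, edgeR adjusted p = 0.215), and Igf2r, a receptor that clears IGF2, had 0.17. The parental alleles are not separated in these counts.

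Cell cycle and retinoic acid genes had no called member by edgeR. The 24 tested replication genes had a median of 0.11, with 0 at an unadjusted p under 0.05 and 0 called by DESeq2, and Rrm2 and Mcm2 had log2 fold changes of 0.36 and -0.14. The 22 mitosis genes had a median of -0.15, with 2 lower at an unadjusted p under 0.05 and 0 called by DESeq2, and Ccnb2 and Top2a had -0.38 and -0.21. The 17 genes of G1 arrest had a median of -0.23, with 3 lower at an unadjusted p under 0.05 and 1 called lower by DESeq2. Rb1, the retinoblastoma gene, averaged 73.6 ± 6.06 CPM in KO and 119 ± 9.97 CPM in WT (log2 fold change -0.69, edgeR adjusted p = 0.289), and Cdk4 had 0.10. The 15 retinoic acid genes had a median of -0.11, with 0 at an unadjusted p under 0.05 and 0 called by DESeq2, Rec8 at -1.27 (adjusted p = 0.657) and Rxrb at -0.11. The 7 tested Y-linked genes had 0 called by edgeR or DESeq2 and 0 at an unadjusted p under 0.05, with Eif2s3y at a log2 fold change of 0.00 and Uba1y at -0.15.

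**Figure D4:**
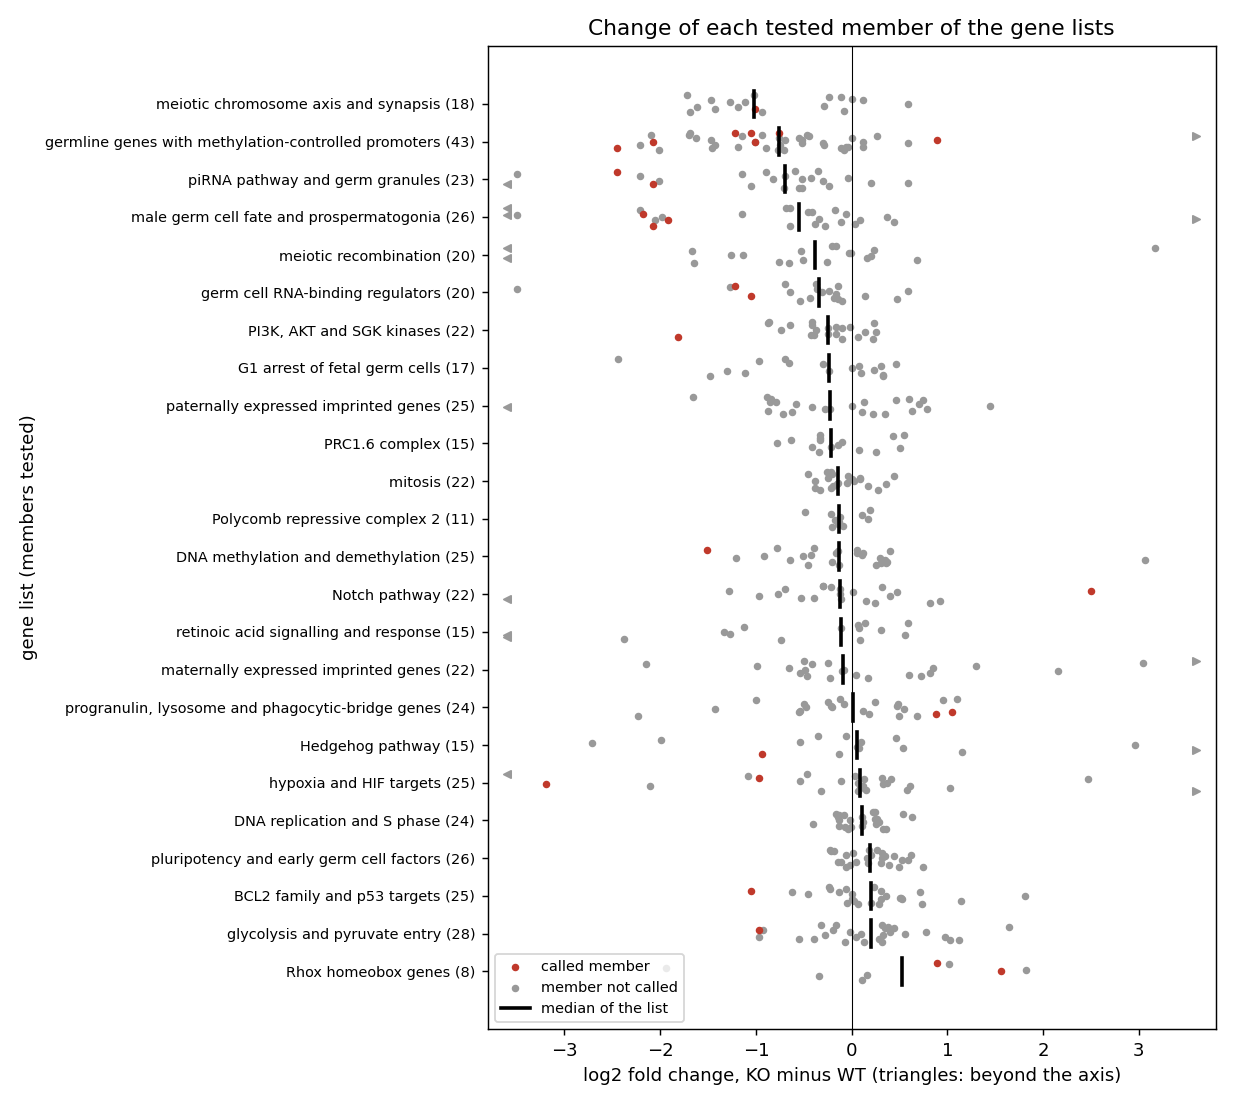
Log2 fold change of KO minus WT for each tested member of 24 gene lists, with called members in red, other members in grey and the list median as a black bar. The meiotic axis, germline promoter, piRNA and male fate lists have the lowest medians (-1.02 to -0.55) and the Rhox list the highest (0.53), and triangles mark the members beyond 3.6 on either side.

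Set against the other mutants, edgeR called few genes beyond Tet1 in KO. DESeq2 called 111 genes against HxD and 88 against V, where it called 276 against WT. These comparisons share the KO libraries with the comparison above, so they do not repeat it independently. Between KO and HxD, Tet1 was the 1 gene called (0.0068% of genes tested), at 626 ± 101 CPM in HxD (log2 fold change -1.56 for KO minus HxD, edgeR adjusted p = 7.87e-06). Between KO and V, 3 genes were called (0.0204%), each lower in KO: Tet1 (log2 fold change -1.17, edgeR adjusted p = 0.00222), Uchl1 (-1.75, edgeR adjusted p = 0.0038) and Epas1 (-2.85, edgeR adjusted p = 0.0164). At an unadjusted edgeR p under 0.05 there were 686 of 14702 genes between KO and HxD and 603 of 14702 between KO and V. Both counts were below the 1220 (8.3%) between KO and WT. The calls against V did not hold in each setting: with only KO and V fitted 0 remained (adjusted p = 0.355 for Tet1), and without WT 3 and V 3 together 0 remained (adjusted p = 0.111 for Tet1). Uchl1 and Epas1 were also lost with a stricter filter, and Epas1 without KO 1 or V 3.

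The levels of these genes in HxD and V are given beside those in KO and WT. The genes were chosen by their difference between KO and WT, and the WT libraries are the same, so their place relative to WT in HxD and V is a description. Mael averaged 22.1 ± 11.8 CPM in KO, 16.3 ± 6.40 CPM in HxD, 39.6 ± 11.7 CPM in V and 121 ± 45.2 CPM in WT (SD, n = 3 each). For KO minus HxD its log2 fold change was 0.44, with a 95% interval of -0.33 to 1.20, and for KO minus V it was -0.84, with an interval of -1.60 to -0.07 (edgeR adjusted p = 1 in each). Dazl averaged 849 ± 193 CPM in KO, 793 ± 192 CPM in HxD, 953 ± 255 CPM in V and 1754 ± 150 CPM in WT, and Tex14 averaged 225 ± 18.6, 239 ± 9.94, 249 ± 3.13 and 381 ± 31.2 CPM in the same order. For Dazl, KO minus HxD was 0.10 (interval -0.29 to 0.48), and for Tex14 it was -0.08 (interval -0.40 to 0.23). Rhox5, the called germline gene that was higher in KO, averaged 361 ± 42.4 CPM in KO, 363 ± 47.2 CPM in HxD, 286 ± 85.4 CPM in V and 195 ± 39.1 CPM in WT. Epas1 had 4.76 ± 2.91 CPM in KO, 24.2 ± 6.85 CPM in HxD, 34.4 ± 15.1 CPM in V and 43.7 ± 7.33 CPM in WT. All KO libraries of Epas1 lay below all HxD and V libraries, and KO minus HxD was -2.34 (interval -3.35 to -1.33, edgeR adjusted p = 0.213). Uchl1 averaged 42.2 ± 13.0 CPM in KO, 93.6 ± 3.42 CPM in HxD, 142 ± 73.7 CPM in V and 159 ± 32.9 CPM in WT, with KO minus HxD at -1.15 (interval -1.71 to -0.59, edgeR adjusted p = 0.489). Among genes that rose, Lrrc34 averaged 48.1 ± 22.2 CPM in KO, 33.6 ± 12.8 CPM in HxD, 26.2 ± 6.82 CPM in V and 7.68 ± 3.50 CPM in WT, and Mkx averaged 79.7 ± 11.8, 85.6 ± 19.8, 40.8 ± 11.4 and 26.2 ± 15.4 CPM in the same order.

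The calls differ in how much they rest on single libraries. Mael, Epas1, Uchl1, Sgk3 and Tet1 were called in each of 16 alternative settings that bear on KO minus WT. Dazl and Lrrfip1 were lost in 1 setting each, Lrrc34 in 2, and Bnc2, Rab3gap2 and Rbm44 in 3. The remaining called genes were lost in 4 (Grn among them) to 9 (Kndc1 among them). Of the 32 genes, 13 were still called without WT 1, 31 without WT 2, 19 without WT 3, 19 without KO 1, 29 without KO 2 and 17 without KO 3. With WT 3 and V 3 left out together 11 remained, each of them lower in KO. The median of the germline list ran from -0.91 without KO 2 to -0.59 without WT 1, and that of the meiotic axis list from -1.29 without KO 2 to -0.69 without WT 1.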

How the data were processed

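Polyadenylated RNA of sorted male germ cells was sequenced after oligo-dT capture, per the labels' protocols. The authors deposited whole-number counts of reads for each gene symbol, with unequal library totals and no scaling in the values. The submitters' processing notes name STAR 2.7.10b and featureCounts 2.0.3, with FastQC, SAMtools 1.9 and Trim Galore 0.6.7. Both GRCm39 and mm10 appear there without a role. Gene annotation, strandedness of counting and read filters were not given in the sources used here, so reads of overlapping or antisense genes cannot be told apart. 12 libraries have a named column. A further column, 1 in all, carried no sample name and was left out, and 1 wild-type sample was not analysed here.

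The 12 libraries were fitted together with edgeR 4.0.16 (R 4.3.3): default expression filter, TMM scaling, quasi-likelihood F-test with genotype as the only term, two-sided, with Benjamini-Hochberg adjustment over 14702 genes and a threshold of 0.05. The legacy option of the quasi-likelihood fit was used, and the newer one is an alternative. Library totals were 13584484 to 29641963 counts. CPM were computed after TMM scaling, and SE and 95% intervals come from the fit. Summed CPM were compared by exact permutation. Scripts were tested on simulated data. DESeq2 1.42.0, sva 3.50.0 and the other alternatives are in the closing section.

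The 35 gene lists and the comparison itself were chosen with earlier results of these data known. Lists were described by counts and medians, and for some of them the summed CPM were compared by exact permutation. No other set test was run. Named genes are Tet1, every called gene, with values in each library for the 10 lower and 10 higher ones of smallest p, the called members of each list or, where none was called, the member of smallest p and the member of highest level, the called genes against HxD and V, and the 5 genes nearest above the threshold. Of the genes this rule names, 1 is not reported here. Every other named gene was chosen after its values were seen. Marker and mitochondrial lists are given as sums, with single members only where they define the cell type. Promoter sequences are from RefSeq, build GRCm38.p6, with the first entry of the table used for genes with several. Of the 22 called lower genes 17 had an entry, and the promoter features of that set are not given here.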

Additional observations from a re-analysis of the deposited data

How the results depend on the processing

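For KO minus WT, Tet1 was called in each alternative, with a log2 fold change of -1.56 to -1.39. For KO minus WT the count of 32 called genes became 276 with DESeq2 (28 of the 32 among them), 148 without the low-count filter, 104 with the replicate block, 93 with the newer quasi-likelihood method (an alternative chosen after seeing the data), 18 with 1 surrogate variable, 14 with a stricter filter, 12 with only KO and WT fitted and 11 with WT 3 and V 3 left out together (0 higher). Leaving out 1 library at a time gave 15 (without WT 1) to 95 (without WT 2), with 73 without KO 2 and 19 without KO 3. With RLE scaling the count was 33, and with robust empirical Bayes 22. Of the 32, DESeq2 did not call Col18a1, Akap11, Smc1b and Phldb3. For KO minus HxD the count of 1 became 111 with DESeq2, 8 without the filter, 8 with the replicate block, 3 with the newer method and 1 to 14 on leaving out libraries (14 without HxD 1, 4 without KO 2). For KO minus V the count of 3 became 88 with DESeq2, 21 without the filter and 16 with the replicate block. It was 5 with the newer method and 1 with the stricter filter. With only KO and V fitted it was 0 (589 of 13179 genes at an unadjusted p under 0.05). Without WT 3 and V 3 it was 0 (553 of 15795 genes at an unadjusted p under 0.05). On leaving out single libraries it was 2 to 18 (18 without V 2, 16 without KO 2, 7 without V 1). The cause of these moves was not tested. Deviations from the group mean correlated at -0.06, 0.02 and 0.03 between same-numbered KO and WT libraries, which shows no clear pairing of these 2 groups. Whether libraries of the same number share a batch was not tested. Among uncalled genes, the sign turned for Jund (-0.21 to 0.10 on leaving out libraries), Dppa3 (-0.29 to 0.0228), Rbbp4 (-0.18 to 0.0149) and Rxrb (-0.20 to 0.0502). Genes under about 20 CPM had standard errors too large for calls, and absent calls there say nothing about those genes.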

Other observations

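Of the 32 called genes, 29 were on autosomes and 3 on the X chromosome (Rhox5, Rhox9 and Msn). Chromosome 1 held 5 of the 22 lower genes (Sgk3, Mael, Rab3gap2, Lrrfip1 and Rbm44) and none of the higher ones. It held 812 of the 14358 tested genes with a known chromosome, and their median log2 fold change was -0.05. Over all genes tested, 0.15% were called lower. Whether chromosome 1 held more of the calls than its share of genes was not tested. Between KO and HxD, genes short of the threshold with the smallest p beside Epas1, chosen after their values were seen, were Mcam, a cell adhesion gene (21.7 ± 8.12 CPM in KO and 68.7 ± 33.7 CPM in HxD, SD, n = 3 each, log2 fold change -1.66, edgeR adjusted p = 0.173), and Mios, a component of nutrient sensing at the lysosome (105 ± 9.15 CPM in KO and 41.5 ± 15.4 CPM in HxD, log2 fold change 1.34, edgeR adjusted p = 0.213).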
